A study of Mus musculus with 6 samples.

Results

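The chitinase-like family around *Chil1* was followed in monocytes from the central nervous system (CNS) of mice with experimental autoimmune encephalomyelitis (EAE), a model of autoimmune inflammation of the CNS. The 7 members were *Chil1*, *Chil3*, *Chil4*, *Chil5*, *Chit1*, *Chid1* and *Ctbs*, of 54232 genes in the files. The set was chosen by the *Chil1* level, which differed between the genotypes more than that of nearly all other genes in these same libraries, so the *Chil1* difference is given as a description, with no test. The other members came in as relatives, whatever their own values. Of the 7 members, 4 had enough counts to enter the comparison across 11254 tested genes, namely *Chil1*, *Chil3*, *Chid1* and *Ctbs*.

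There were 6 RNA-seq libraries, 3 of WT monocytes carrying CD45.1 and 3 of *Ifnar1*-/- monocytes carrying CD45.2, the latter lacking the type I interferon receptor chain IFNAR1. Both genotypes developed in lethally irradiated GFP+ recipients that had received WT and *Ifnar1*-/- bone marrow in equal parts, were immunized 6 to 7 weeks later, and were treated with 30000 IU of rIFN-β daily. Cells were sorted at disease peak as GFP-, CD45+, CD11b+, Ly6Chi and Ly6G-. Every library was thus from treated mice with EAE, no untreated library was analysed here, and the labels give no age. The CD45 allele differed with the genotype in all libraries, so the CD45 donor and the *Ifnar1* genotype cannot be told apart. Cells of both genotypes were sorted from the same kind of mixed chimera, so WT and *Ifnar1*-/- libraries may share recipient mice. The study describes as many recipients as libraries per genotype, but neither it nor the labels tie a library to a mouse. The main comparison therefore treated the libraries as unpaired, and a fit blocked by replicate number was run as an alternative. The p-values measure the spread between these samples, which may be technical.

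Library totals were 7321380, 4531782 and 4946747 expected counts for WT replicates 1 to 3, and 6916101, 5811323 and 5442568 for *Ifnar1*-/- replicates 1 to 3. Levels are given as normalized CPM, that is, counts per unit of sequencing depth scaled to the effective library size. A floor of 3 counts corresponded to 0.427 to 0.638 normalized CPM, which covers counting error only. All 8 monocyte markers were tested, and their summed level was 10221, 8413 and 9533 normalized CPM in WT and 10198, 8870 and 10025 in *Ifnar1*-/- libraries. *Ly6g*, the neutrophil antigen excluded in the sort, had 0 to 4 counts per library. *Ifnar1* itself was at 153, 126 and 111 normalized CPM in WT and at 110, 102 and 109 in *Ifnar1*-/- monocytes. The ranges nearly met (log2 fold change 0.28, SE 0.15, edgeR adjusted p = 0.360), and counts over a whole gene do not show whether exons are missing from its transcripts.

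Chitinases of glycoside hydrolase family 18 cleave chitin, a polymer of N-acetylglucosamine that mammals do not make. Chitinase-like proteins keep the fold but have lost the catalytic activity, and are secreted by macrophages, neutrophils and epithelial cells in inflammation. In the CNS, chitinase-like proteins are known from reactive astrocytes and myeloid cells, and the human product of the *Chil1* counterpart is measured in cerebrospinal fluid in multiple sclerosis. *Chil3* (Ym1) and *Chil4* (Ym2) are rodent genes widely used as markers of macrophages exposed to IL-4 and IL-13.

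The members lie at 4 loci of the mouse genome (GRCm38). *Chil1* (ENSMUSG00000064246.10) is at chr1:134182176-134190181 on the plus strand, and *Chit1*, the true chitinase of macrophages, ends 30.6 kb before it. *Chil3*, *Chil4* and *Chil5* lie on the minus strand of chromosome 3, in a cluster of 432 kb that runs from *Ovgp1* to *Chil6*. *Ctbs*, at chr3:146449795-146465849, encodes the lysosomal enzyme chitobiase, and *Chid1*, at chr7:141493136-141539857, encodes a chitinase domain protein that binds sugars. The gene bodies of *Chil1*, *Chil3*, *Chil4* and *Chit1* overlap no other annotated gene.

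*Chil1*, which encodes the secreted lectin chitinase-3-like protein 1, was high in all WT libraries and low in all *Ifnar1*-/- libraries. Its level was 517, 406 and 538 normalized CPM in WT replicates 1 to 3. In *Ifnar1*-/- replicates 1 to 3 it was 11.6, 13.2 and 18.6. The groups did not overlap, and the lowest WT library lay far above the highest *Ifnar1*-/- library. These levels rested on 3634, 1910 and 2725 counts in WT and on 76, 78 and 101 counts in *Ifnar1*-/- monocytes, so both groups were well above the floor. The group means were 487 ± 71.0 and 14.5 ± 3.65 normalized CPM (SD, n = 3 each), a ratio of 33.7. On the log2 scale the fitted difference was 5.08 with an SE of 0.23, rank 4 among the 11254 tested genes. *Chil1* transcripts were thus still detected in every *Ifnar1*-/- library.

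**Figure D1:**
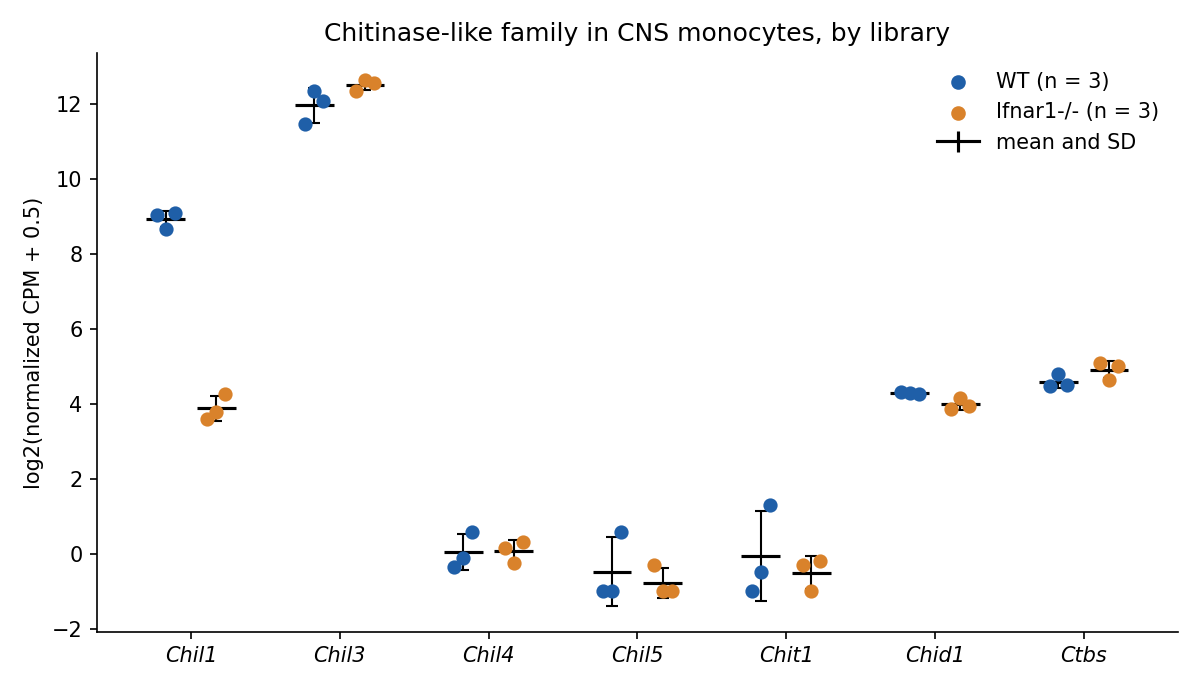
Level of each of the 7 members in each library, as log2 of normalized CPM plus 0.5 on the vertical axis. Points are single libraries (blue WT, orange *Ifnar1*-/-) and bars are the mean and SD of 3 libraries. *Chil1* separates the genotypes, while *Chil3* is the highest member in both.

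*Chil3* (ENSMUSG00000040809.10, chr3:106147554-106167564), which encodes the secreted lectin Ym1, had the highest level of the 7 genes per transcript length in every library. It was at 2783, 5187 and 4328 normalized CPM in WT replicates 1 to 3. In *Ifnar1*-/- replicates 1 to 3 it was at 5156, 6292 and 5955. WT replicate 1 was the lowest library, and WT replicate 2 lay just above *Ifnar1*-/- replicate 1, so the groups overlapped. The means were 4099 ± 1218 in WT and 5801 ± 584 in *Ifnar1*-/- monocytes (SD, n = 3 each). The log2 fold change of WT over *Ifnar1*-/- was -0.50 (SE 0.24, 95% interval -1.04 to 0.04, edgeR adjusted p = 0.309), which did not pass the test. The interval includes 0 and lies far below the *Chil1* difference. Without WT replicate 1 the log2 fold change was -0.28.

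*Chid1* (ENSMUSG00000025512.15) and *Ctbs* (ENSMUSG00000028189.12) differed little between the genotypes. *Chid1* was at 19.2, 18.9 and 18.8 normalized CPM in WT and at 14.0, 17.3 and 14.9 in *Ifnar1*-/- monocytes. Every WT library lay above every *Ifnar1*-/- library in normalized CPM but not in TPM, where WT replicate 1 was the lowest library, and the difference was small (log2 fold change 0.30, SE 0.17, 95% interval -0.08 to 0.67, edgeR adjusted p = 0.385). *Ctbs* was at 21.6, 27.2 and 22.1 normalized CPM in WT and at 33.1, 24.4 and 31.8 in *Ifnar1*-/- monocytes. Here the groups overlapped through WT replicate 2 and *Ifnar1*-/- replicate 2 (log2 fold change -0.34, SE 0.18, 95% interval -0.73 to 0.06, edgeR adjusted p = 0.349). Of the 3 tested relatives of *Chil1*, 0 passed an adjusted p of 0.05 with a 1.5-fold change by edgeR, DESeq2 or limma-voom, and 0 had an unadjusted p under 0.05. By edgeR, 2.13% of all tested genes passed, 1.67% higher and 0.462% lower in WT, and 17.8% had an unadjusted p under 0.05. The share that passed was 3.83% by DESeq2 and 1.96% by limma-voom, and by edgeR 4.1% with no filter on low counts and 1.5% without WT replicate 1. Groups without overlap and with WT higher made up 11.1% of all tested genes, and 1 of the 3 relatives, *Chid1*, was such a gene. *Chid1* overlaps *Tspan4* on the opposite strand and *Ctbs* overlaps *Spata1* likewise, and the strand setting of the counting is not given in the sources used here.

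*Chit1*, *Chil4* and *Chil5* were at the edge of detection. *Chit1*, 30.6 kb from *Chil1*, had 0, 1 and 10 counts in WT and 2, 0 and 2 counts in *Ifnar1*-/- libraries. *Chil4*, which encodes Ym2, had 2.01, 2.04 and 5.03 expected counts in WT and 4.03, 2.01 and 4.03 in *Ifnar1*-/- libraries. *Chil5*, a chitinase-like gene of the chromosome 3 cluster, had 0, 0 and 5 counts in WT and 2, 0 and 0 in *Ifnar1*-/- libraries. In all 3 genes WT replicate 3 held the highest count, and differences between genotypes were not detectable at this depth. Of 3 further family genes, *Chia1* and *Chil6* were at 0 in every library, and *Ovgp1* had at most 2 counts in a library.

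Levels of different genes were compared as TPM, the relative number of transcripts, which takes transcript length into account. In WT monocytes the order was *Chil3* at 2945 ± 1301 TPM, *Chil1* at 307 ± 67.0, *Chid1* at 10.5 ± 3.07 and *Ctbs* at 9.90 ± 5.00 (SD, n = 3). *Chil3* and *Chil1* stood apart from each other and from the rest in every WT library, whereas *Chid1* and *Ctbs* did not differ beyond their spread. In *Ifnar1*-/- monocytes *Chil3* was at 3943 ± 707 TPM, followed by *Ctbs* at 13.5 ± 3.37, *Chil1* at 9.04 ± 2.05 and *Chid1* at 8.89 ± 0.289. The range of *Chil1* overlapped those of *Ctbs* and *Chid1*, which did not overlap each other. Within each *Ifnar1*-/- library *Ctbs* lay above *Chil1*, while the order of *Chil1* and *Chid1* changed between libraries. Among all genes of a library *Chil3* ranked between 18 and 43 by TPM, and *Chil1* ranked 278 to 371 in WT and 5437 to 6786 in *Ifnar1*-/- libraries.

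**Figure D2:**
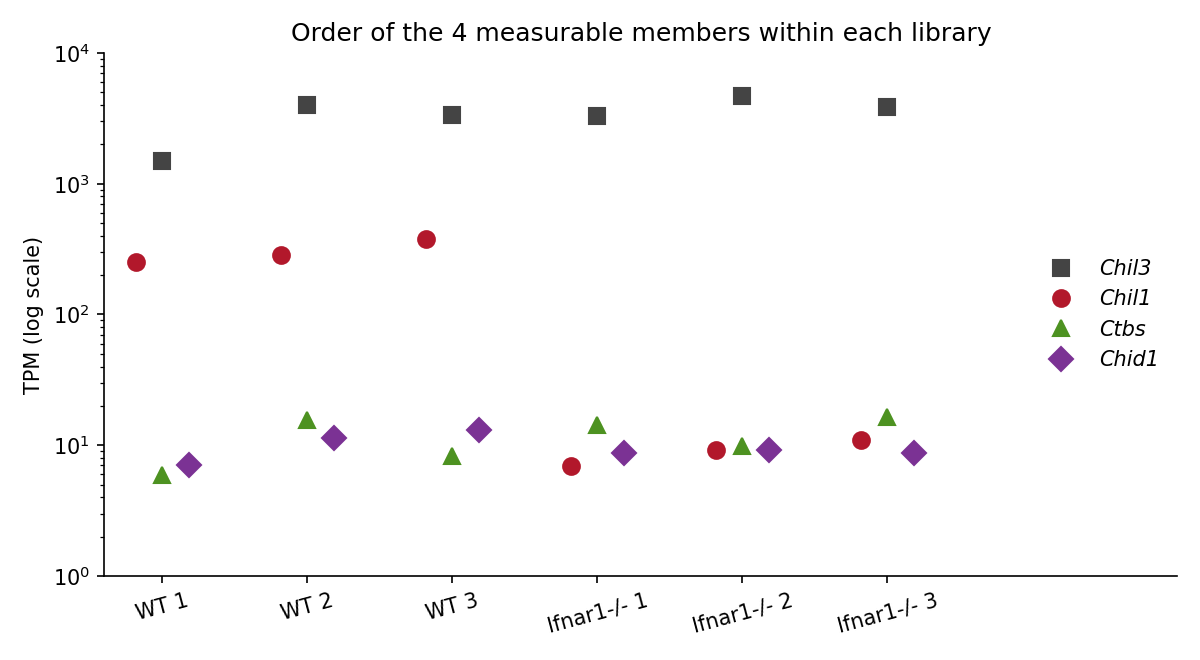
TPM on a log axis of the 4 measurable members in each of the 6 libraries, with points shifted sideways so that they can be told apart. *Chil3* is highest throughout, and *Chil1* sits between *Chil3* and the pair *Ctbs* and *Chid1* in WT libraries but beside that pair in *Ifnar1*-/- libraries.

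The makeup of the family differed accordingly. *Chil1* supplied 14.4%, 6.68% and 10.1% of the summed TPM of the 7 genes in WT replicates 1 to 3, and 0.208%, 0.194% and 0.284% in *Ifnar1*-/- replicates. For each *Chil1* transcript there were 5.91, 13.9 and 8.84 *Chil3* transcripts in WT replicates 1 to 3. In *Ifnar1*-/- replicates 1 to 3 there were 477, 511 and 348. The summed family TPM was 1750, 4295 and 3776 in WT and 3329, 4727 and 3871 in *Ifnar1*-/- libraries, and its range overlapped between genotypes. *Chil3* made up 84.9% to 99.4% of it. In bulk libraries like these, fewer cells with a transcript and less transcript per cell cannot be told apart.

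The mean transcript length that RSEM assigned to a gene weighs its annotated transcripts by their estimated abundance, and was not used to choose the members. Different mixes of transcripts can give the same mean, so it does not show which transcripts took the reads. For *Chil1*, with 8 annotated transcripts, it was 1651, 1647 and 1649 bases in WT and 1634, 1634 and 1651 in *Ifnar1*-/- libraries, which overlapped (exact permutation test, two-sided p = 0.4). For *Chil3* it was 1521, 1533 and 1518 bases in WT and 1534, 1534 and 1534 in *Ifnar1*-/- libraries. These did not overlap, but the gap was small and the exact p of 0.1 is the smallest that 3 libraries against 3 allow (0.4 after adjustment over 4 members). *Chid1* (exact p = 0.5) and *Ctbs* (exact p = 0.4) varied widely within both genotypes. The *Chil1* difference therefore came with transcripts of nearly the same mean length in both groups.

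Since *Chil3* and *Chil4* are near copies, reads could be shared between them. Their coding sequences were identical at 94.3% of aligned positions, against 72.3% for *Chil3* and *Chil5* and 58.0% for *Chil1* and *Chil3*. The longest identical stretch, shown because a 75-base read can fall wholly inside it, is 136 bases long, covers coding positions 987 to 1122 of both genes and spans exons 9 and 10 of 11. In *Chil3* it lies at chr3:106148802-106148850 and chr3:106148634-106148720, and in *Chil4* at chr3:106202742-106202790 and chr3:106202574-106202660, all on the minus strand of GRCm38. No letter differs, so none is in capitals.
*Chil3* and *Chil4*: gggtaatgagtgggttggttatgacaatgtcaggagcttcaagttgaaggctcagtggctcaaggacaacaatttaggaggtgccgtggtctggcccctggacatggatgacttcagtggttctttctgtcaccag
Of the 75-base windows in *Chil3* transcripts, 208 of 1606 also occurred in another gene, among them *Chil4* and the pseudogene *Gm6522*. In *Chil1*, 0 of 2869 windows and in *Chit1*, 0 of 1807 occurred elsewhere, so no window of either gene matched a second annotated gene. *Gm6522* received 1.01 to 8.14 expected counts per library. When the counts of *Chil3* and *Chil4* were summed, the log2 fold change of *Chil3* stayed at -0.50, since *Chil4* added only 19.2 expected counts over the 6 libraries to the 169159 of *Chil3*.

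The 250 bases before the RefSeq start of each gene (GRCm38.p6) were searched on both strands for 5 letter patterns. These were GAAA followed after 2 free bases by GAAA, the core of the interferon-stimulated response element (in 2.97% of 32817 promoter windows), TTCNNNGAA, the GAS pattern (7.01%), TTC and GAA set 4 free bases apart, preferred by STAT6 (5.85%), TTGCNNAA, a C/EBP core (9.57%), and TATAAA (12.4%). The windows of *Chil1* and *Chit1*, neighbors with unlike levels, are shown first and hold none of the 5, which says only that these letters are not there. *Chil1* is given from chr1:134181906-134182155 and *Chit1* from chr1:134110992-134111241, both on the plus strand.
*Chil1*: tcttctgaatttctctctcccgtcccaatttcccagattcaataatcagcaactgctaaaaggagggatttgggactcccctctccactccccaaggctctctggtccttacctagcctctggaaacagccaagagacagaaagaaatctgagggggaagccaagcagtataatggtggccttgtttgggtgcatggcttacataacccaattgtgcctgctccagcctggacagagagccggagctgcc
*Chit1*: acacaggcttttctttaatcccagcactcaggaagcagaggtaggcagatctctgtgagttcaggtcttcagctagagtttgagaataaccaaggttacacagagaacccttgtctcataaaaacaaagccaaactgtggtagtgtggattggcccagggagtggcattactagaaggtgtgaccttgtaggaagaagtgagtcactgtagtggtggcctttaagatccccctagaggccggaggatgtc
The windows of *Chil3* (chr3:106167565-106167814, minus strand) and *Chil4* (chr3:106219480-106219729, minus strand) are shown because they resemble each other at 72.4% of aligned positions while the genes differ widely in level. Matches are in capitals.
*Chil3*: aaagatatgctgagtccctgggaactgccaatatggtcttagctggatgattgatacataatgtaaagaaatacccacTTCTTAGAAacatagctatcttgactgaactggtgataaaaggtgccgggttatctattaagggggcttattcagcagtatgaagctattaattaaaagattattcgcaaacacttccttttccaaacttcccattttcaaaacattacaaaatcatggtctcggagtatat
*Chil4*: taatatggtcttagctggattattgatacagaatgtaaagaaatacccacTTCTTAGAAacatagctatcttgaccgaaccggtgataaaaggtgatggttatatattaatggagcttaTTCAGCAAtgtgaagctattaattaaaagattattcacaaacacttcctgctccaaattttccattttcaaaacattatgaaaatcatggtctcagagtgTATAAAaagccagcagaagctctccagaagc
Both hold TTCTTAGAA, a match to the GAS pattern, first base at -172 in *Chil3* and -200 in *Chil4*. The *Chil4* window also holds a C/EBP core read on the minus strand at -131 and TATAAA at -31, while *Chil3* holds neither of these. *Chil5*, *Chid1* and *Ctbs* hold no match to any of the 5 patterns. Among 15 interferon-stimulated reference genes, 11 had a promoter window, and 7 of these held the interferon-stimulated response element core, among them *Ifit1*, *Isg15*, *Rsad2* and *Cxcl10*. Matches are descriptions and not binding sites.

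Neighbors of *Chil1* moved in both directions or did not pass the test. Within 1 Mb, 22 other genes were tested, of which 1 rose and 1 fell in WT and 20 did not pass. This made 9.09% of them, beside 2.13% of all tested genes. Their median log2 fold change was -0.09, beside -0.01 over all tested genes. The 9.09% rests on *Mybph* and *Ppfia4*, each low in 1 genotype, and 0 passed with at least 10 counts in every library. *Mybph*, a myosin-binding protein gene that begins 3.27 kb beyond *Chil1*, had 15, 10 and 18 counts in WT and 0, 1 and 1 counts in *Ifnar1*-/- libraries. It passed the test (edgeR adjusted p = 0.0102), but the *Ifnar1*-/- counts were under the floor, and it lost the call without WT replicate 3, without *Ifnar1*-/- replicate 1, without *Ifnar1*-/- replicate 3, and with DESeq2. *Ppfia4*, a liprin gene 107 kb beyond *Chil1*, went the other way. It was at 1.14, 2.34 and 0.790 normalized CPM in WT and 17.3, 17.8 and 22.1 in *Ifnar1*-/- libraries (log2 fold change -3.76, SE 0.33, edgeR adjusted p = 0.000138). *Mybph* and *Ppfia4* each entered the test through the genotype in which they were high. With at least 10 counts in every library neither was tested. Within 5 Mb, 4 other genes rose and 1 fell of 79 tested (6.33%). The 3 beyond 1 Mb, named after their values were seen, were *Ctse*, the gene of the protease cathepsin E (log2 fold change 3.64), *Nav1* (3.03) and *Gm38399* (2.85). Each was higher in every WT library than in any *Ifnar1*-/- library, which held for 11.1% of all tested genes. For genes named because they passed as higher in WT, this adds no support. *Btg2* and *Adipor1*, on either side, were at log2 fold changes of 0.13 and 0.29 and did not pass. *Ptprc*, the CD45 gene whose allele differs between donors, lies 3.88 Mb away and was at a log2 fold change of 0.03 (edgeR adjusted p = 0.950). The part of the CD45 donor in the *Chil1* difference was not tested and cannot be told apart from that of the *Ifnar1* genotype.

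**Figure D3:**
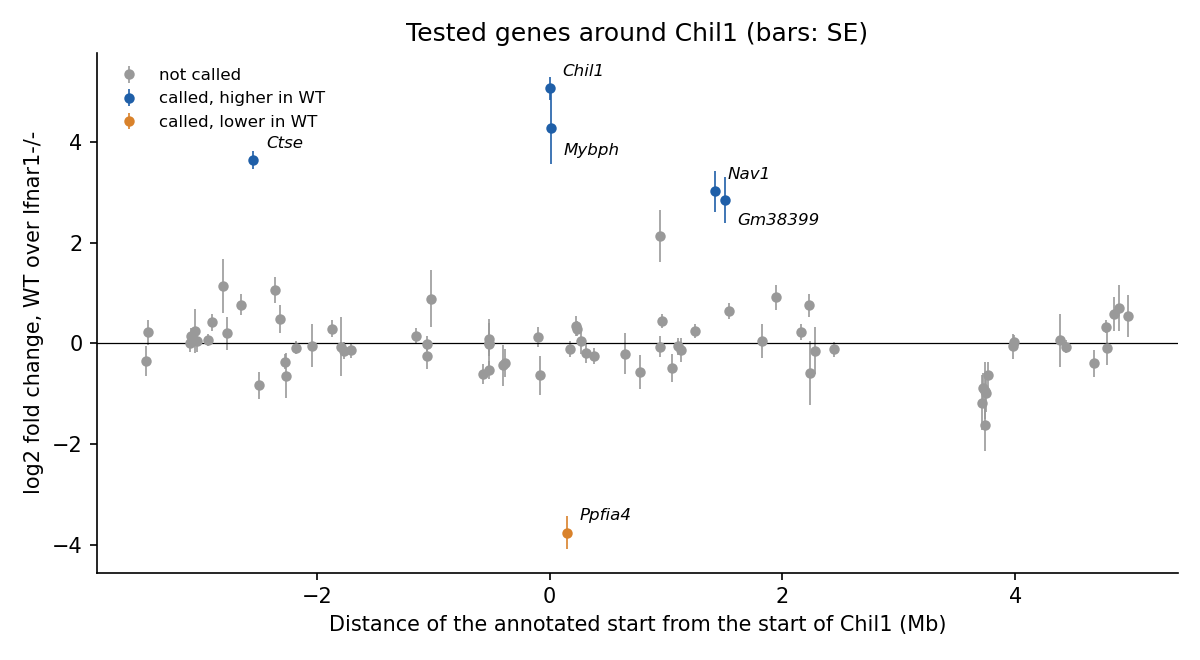
Log2 fold change of WT over *Ifnar1*-/- (vertical axis, bars are SE) of tested genes near *Chil1*, against the distance of their start from that of *Chil1* in Mb. Blue and orange mark genes that passed in WT and in *Ifnar1*-/- direction. *Mybph* lies beside *Chil1* in place and direction, *Ppfia4* lies opposite, and most neighbors sit near 0.

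By Pearson correlation of log2 normalized CPM over the 6 libraries, genes most like *Chil1* included *Gm20559* (r = 0.999), *Cgas* (r = 0.996), *Trim34a* (r = 0.995) and *Usp18* (r = 0.995). The libraries fall into 2 groups, so r mostly records the gap between genotypes and is a description only. *Usp18*, which encodes a deconjugating enzyme for ISG15, was at 109, 69.9 and 70.3 normalized CPM in WT and at 3.82, 4.91 and 6.07 in *Ifnar1*-/- libraries. *Cgas*, the cytosolic DNA sensor, was at 14.2, 11.5 and 13.8 in WT and at 4.28, 4.74 and 4.97 in *Ifnar1*-/- libraries. The log2 fold change was 4.09 for *Usp18* and smaller for *Cgas*, and both were below that of *Chil1*.

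Of 15 interferon-stimulated reference genes, 14 rose in WT, beside 1.67% of all tested genes, and the median log2 fold change was 4.09. Their summed level was 4290, 2994 and 2931 normalized CPM in WT and 856, 1117 and 951 in *Ifnar1*-/- libraries. *Chil1* and this list were both high in WT libraries, but the highest library was WT replicate 1 for the list and WT replicate 3 for *Chil1*.

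**Figure D4:**
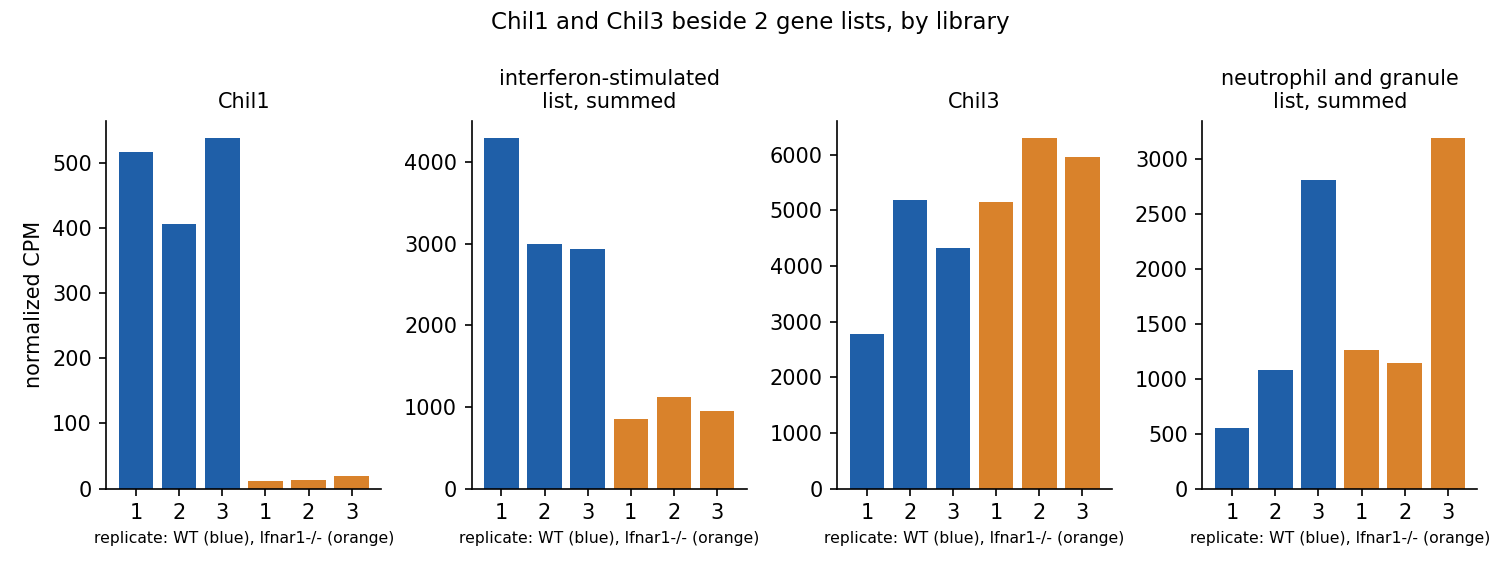
Normalized CPM by library (blue WT, orange *Ifnar1*-/-, bars numbered by replicate) of *Chil1*, the summed interferon-stimulated list, *Chil3* and the summed neutrophil and granule list. *Chil1* and the interferon-stimulated list separate the genotypes, and the other panels do not.

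Of the genes listed around the family as receptors, inducers or partners in glycan breakdown, 0 passed by edgeR. Binding partners and receptors of its product gave 4 tested genes of 7, of which 0 passed by edgeR, DESeq2 or limma-voom and 1 had an unadjusted p under 0.05 (median log2 fold change 0.42). *Cd44* had the most reads, at 988, 875 and 751 normalized CPM in WT and 1129, 784 and 777 in *Ifnar1*-/- libraries. *Tmem219*, a receptor partner, was at 47.1, 57.0 and 33.8 in WT and 27.3, 33.4 and 31.4 in *Ifnar1*-/- libraries (log2 fold change 0.58, SE 0.19, edgeR adjusted p = 0.159). *Il13ra2*, a receptor chain reported to bind the *Chil1* product, was at 0 in every library.

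IL-4 and IL-13 signaling, known to induce *Chil3* and *Chil4* in macrophages, gave 7 tested genes of 9, of which 0 passed by edgeR, DESeq2 or limma-voom and 2 had an unadjusted p under 0.05 (median log2 fold change 0.22). *Il4ra*, the shared receptor chain, was at 569, 523 and 447 normalized CPM in WT and 512, 499 and 477 in *Ifnar1*-/- libraries, which overlapped. *Il13* was at 0 in every library and *Il4* had 1 count in all. Of 12 genes of alternative activation, 9 were tested and 0 passed by edgeR or limma-voom (1 by DESeq2, *Mrc1*, and 2 at an unadjusted p under 0.05). Their median log2 fold change was -0.18. *Mrc1*, the mannose receptor, was at 34.9, 26.4 and 21.7 in WT and 51.3, 48.8 and 43.6 in *Ifnar1*-/- libraries. WT lay below *Ifnar1*-/- without overlap, which held for 12.2% of all tested genes (log2 fold change -0.79, SE 0.18, edgeR adjusted p = 0.061). *Ccl24*, a chemokine of the same list, was at -1.90 (SE 0.56, edgeR adjusted p = 0.124), and *Retnla*, often paired with *Chil3*, had 1 count in all. Without WT replicate 1, with no filter on low counts, or with a replicate block, *Mrc1* and *Ccl24* passed by edgeR. With the block in DESeq2 *Ccl24* passed and *Mrc1* did not.

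Partners of *Ctbs* and the chitinases in glycan breakdown gave 15 tested genes of 15, of which 0 passed by edgeR or limma-voom (1 by DESeq2, and 3 at an unadjusted p under 0.05). Their median log2 fold change was 0.06.

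**Figure D5:**
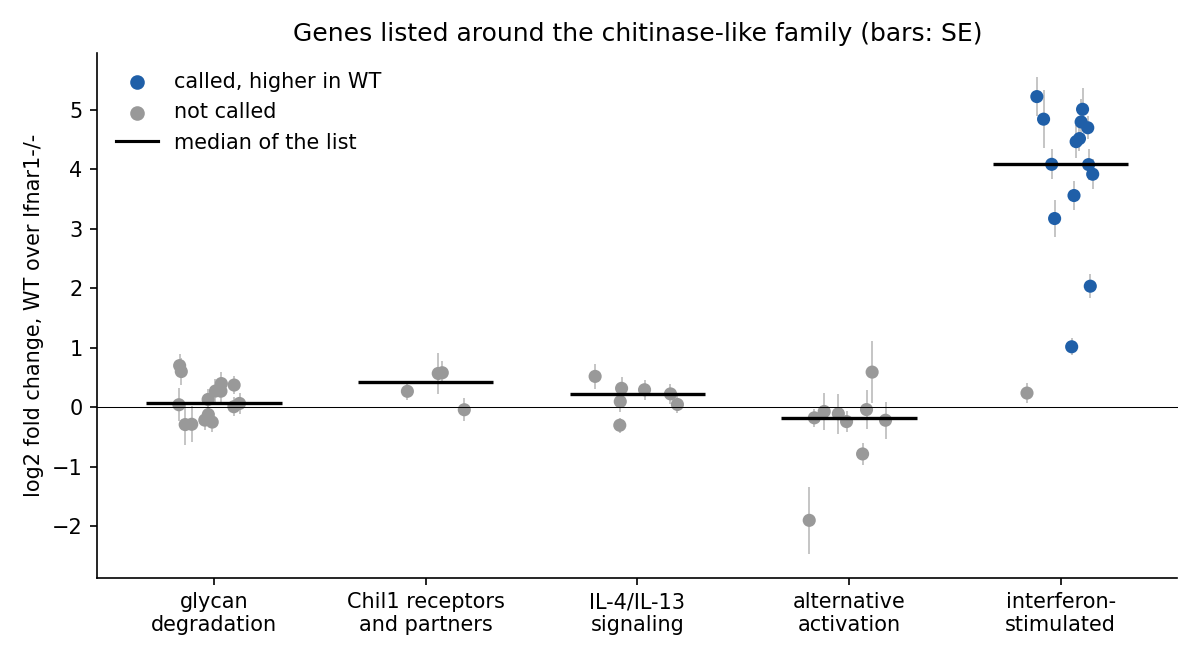
Log2 fold change of WT over *Ifnar1*-/- (vertical axis, bars are SE) of the tested genes of 5 lists, with the median of each list as a black line. Blue points passed the test. Of these 5 lists, only the interferon-stimulated one holds genes that passed by edgeR, with a median of 4.09.

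Other cell types were followed through their markers. Astrocytes lack CD45 and would come from the GFP+ recipient, so the sort for GFP- and CD45+ cells was set to remove them, and the gate on CD11b+ and Ly6Chi cells was set to remove most T cells. Astrocyte markers (6 genes, 4 tested, 0 passed by edgeR, DESeq2 or limma-voom, 1 at an unadjusted p under 0.05) summed to 21.9, 21.0 and 27.8 normalized CPM in WT and 10.8, 18.6 and 20.4 in *Ifnar1*-/- libraries, so the sum was higher in all WT libraries. *Slc1a2* was the most abundant at 11.5 on average, *Aqp4* had 0 to 3 counts, and *Gja1* went the other way (log2 fold change -1.60, SE 0.49, edgeR adjusted p = 0.132). T cell markers (7 genes, 5 tested, 0 passed by edgeR, DESeq2 or limma-voom, 5 at an unadjusted p under 0.05, beside 17.8% of all tested genes) summed to 41.8, 17.6 and 39.9 normalized CPM in WT and 16.6, 7.46 and 8.28 in *Ifnar1*-/- libraries. *Cd3g* was the most abundant on average, at 4.18, and the median log2 fold change was 1.72. Both sums moved with *Chil1*, and their part in its difference was not tested. With no filter on low counts, 6 of the 7 T cell markers and 1 astrocyte marker, *Gja1*, passed by edgeR, beside 4.1% of all genes under that setting.

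Neutrophil and granule markers, which matter for *Chil3* and *Chil1* because neutrophils and their precursors make both, had a sum that varied more within genotypes than between them. It was 556, 1085 and 2811 normalized CPM in WT and 1259, 1141 and 3192 in *Ifnar1*-/- libraries, highest in replicate 3 of both. Of 16 markers 15 were tested, and 0 passed by edgeR or limma-voom (1 by DESeq2, *Csf3r*, and 1 at an unadjusted p under 0.05). Their median on the log2 scale was -0.24. With no filter on low counts, where 4.1% of all genes passed, 6 passed by edgeR, *Csf3r* higher in WT and *Ctsg*, *Elane*, *Mpo*, *S100a8* and *S100a9* lower. *Ngp* was the most abundant, at 317 on average. *Chil3* and this sum were both lowest in WT replicate 1, but *Chil3* was highest in *Ifnar1*-/- replicate 2, and the part of these cells in its level was not tested. WT replicate 3, with the highest granule sum of the WT libraries, also held the highest counts of *Chit1*, *Chil4* and *Chil5*. Eosinophil markers summed to at most 8.49 normalized CPM, with *Prg2* the most abundant and *Il5ra* at 0, and microglia markers summed to 33.0 to 44.5. Of the 1 eosinophil and 3 microglia markers tested, 0 passed by edgeR, DESeq2 or limma-voom and 0 had an unadjusted p under 0.05. With no filter on low counts the eosinophil marker *Ccr3* passed, on 10, 0 and 17 counts in WT and 3, 0 and 1 in *Ifnar1*-/- libraries. Among the monocyte markers *Ly6c2*, which encodes the antigen of the sort, rose in WT, at 726, 788 and 640 normalized CPM against 177, 300 and 337 (log2 fold change 1.40, SE 0.23, edgeR adjusted p = 0.00957). The other 7 did not pass by edgeR or limma-voom. DESeq2, and edgeR with no filter on low counts, also called *Fcgr1* (higher in WT, edgeR log2 fold change 0.71) and *Ccr2* (lower in WT, -0.62).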

How the data were processed

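The authors sequenced the libraries as paired 75-base reads, and the submitters' processing notes name STAR 2.6.0c, RSEM 1.2.31 and GRCm38. The labels and the study's methods name different library kits. The deposited expected counts are estimates per gene that are not normalized, and the deposited TPM are length-adjusted values scaled by the authors to a fixed total per library. Gene symbols came from GENCODE M21, which matched 54165 of 54232 identifiers.

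Expected counts were rounded and compared between WT and Ifnar1-/- with the quasi-likelihood test of edgeR 4.0.16 (R 4.3.3, TMM, filterByExpr with a minimum count of 10, Benjamini-Hochberg adjustment over 11254 genes, no block). A gene passed at 1.5-fold or more with an adjusted p no larger than 0.05. SE were derived from the fold change and the F statistic. DESeq2 1.42.0, limma-voom (limma 3.58.1), other filters and normalizations, a replicate block and leaving out each library were tried as alternatives. Exact permutation tests were two-sided over 3 libraries against 3. The named genes are the 7 members, the genes of 12 lists, tested genes within 1 Mb of Chil1, Ptprc, Ifnar1 and the 5 genes most correlated with Chil1. Neighbors beyond 1 Mb, and genes that overlap a member or share its sequence, were named after their values were seen. A few of these genes are not reported here. Members and lists were chosen with earlier results of these data known. Promoter sequences are from RefSeq (GRCm38.p6) and coding sequences from GENCODE M21.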

Additional observations from a re-analysis of the deposited data

How the results depend on the processing

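The log2 fold changes of Chil1, Chil3, Chid1 and Ctbs kept their direction under all 18 alternatives run for each. In the 15 of these that give a test, Chil3, Chid1 and Ctbs did not pass. They ranged from 4.94 to 5.31 for Chil1, from -0.70 to -0.28 for Chil3, from 0.18 to 0.41 for Chid1 and from -0.54 to -0.23 for Ctbs. Leaving out each library gave 4.96 to 5.31 for Chil1 and -0.70 to -0.28 for Chil3. The number of genes that passed was 240, against 419 with DESeq2 and 872 with no filter on low counts, and 119 to 245 when a library was left out, with 148 without WT replicate 3, 119 without Ifnar1-/- replicate 1 and 120 without Ifnar1-/- replicate 3. The 2 genes that passed within 1 Mb of Chil1 became 4 with no filter on low counts, 0 with at least 10 counts in every library, 1 with the replicate block in DESeq2, 5 in a window of 5 Mb, and 1 to 2 when a library was left out. With DESeq2 the 2 genes were Ppfia4 and Ptprv. With at least 10 counts in every library Mybph and Ppfia4 were not tested. For the other changes the cause was not tested. Of 180 counts of passing list genes under alternatives, 163 were unchanged, 1 was lower (12 in place of 14 interferon-stimulated genes with at least 10 counts in every library) and 16 were higher, among them Ccl24 and Mrc1 with the replicate block and 6 T cell and 6 neutrophil and granule markers with no filter on low counts.

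With a replicate block in the fit, 220 genes passed, the log2 fold change was 5.09 for Chil1 and -0.54 for Chil3 (edgeR adjusted p = 0.227), and 2 genes passed near Chil1. The numbers were not shown to pair the libraries: deviations of same-numbered libraries correlated at 0.09, 0.03 and 0.29. WT replicate 1 correlated slightly better with Ifnar1-/- replicate 2 (0.10), while WT replicates 2 and 3 each correlated best with their same-numbered library. At 4531782 to 7321380 counts per library, Chil4, Chil5 and Chit1 were too low to compare.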
